A study of Homo sapiens with 9 samples.

Results

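Heat shock chaperones fold new and damaged proteins, and HSF1 is the transcription factor that raises their genes under stress. The levels of 10 genes were followed: the Hsp70 chaperones HSPA1A (inducible) and HSPA8 (constitutive), the Hsp110 chaperone HSPH1, the J-domain partner DNAJB1, the cochaperone BAG3, the Hsp90 chaperone HSP90AA1, the chaperonin pair HSPD1 and HSPE1, the small heat shock protein HSPB1, and HSF1 itself. They were found in the tables by gene symbol. All 10 were among the 16222 genes of the deposited tables, and all 10 were among the 12970 genes with enough counts to be tested. Most of these proteins work in the cytosol, whereas HSPD1 and HSPE1 are textbook chaperones of the mitochondrial matrix, so "cytosolic" does not describe the whole set.

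The RNA came from THP-1, an established human monocytic leukaemia line that is labelled WT. Every group, the controls included, had been treated with PMA, a phorbol ester after which these suspension cells adhere and resemble macrophages. The 3 groups of 3 libraries then received PBS (control), LPS, a bacterial cell wall component sensed by TLR4 (LPS), or LPS with ABS (LPS_ABS). The labels do not write ABS out. The series title speaks of apoptotic bodies and of the balance of macrophage polarization. The labels used here state no dose and no duration for any agent. All libraries come from 1 cell line, in bulk, so fewer cells with a transcript and less transcript per cell cannot be told apart.

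Hsp70 proteins bind exposed hydrophobic stretches of a client and release them in a cycle driven by ATP. J-domain proteins such as DNAJB1 deliver clients and start ATP hydrolysis, while HSPH1 and BAG3 promote the exchange of nucleotide that lets the client go. Hsp90 takes over partly folded clients, among them kinases and steroid receptors, with cochaperones such as STIP1, AHSA1 and FKBP4. HSPD1 and HSPE1 form the folding chamber of the mitochondrial matrix and its lid, and HSPB1 holds unfolding proteins without using ATP. In unstressed cells HSF1 is kept inactive by chaperones. When unfolded proteins occupy those chaperones, HSF1 forms trimers and binds heat shock elements, which are alternating GAA and TTC units. In macrophages, chaperones of these families also serve the kinases that act downstream of TLR4.

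The heat shock elements that such trimers bind are a sequence feature that these genes share, so the promoters were read for them in RefSeq windows of the GRCh38.p14 build, from 250 bases before to 50 after each annotated start. The table held 13 windows for 9 of the 10 genes. A match with 2 units was GAANNTTC or TTCNNGAA, each of which is its own reverse complement. A match with 3 units added another unit at the same spacing, as GAA, TTC, GAA or, on the other strand, TTC, GAA, TTC, so it contains overlapping matches with 2 units. Of all 35116 windows, 13.49% held a match with 2 units and 0.49% held a match with 3 units. Among the 13 windows of these genes, 7 held a match with 2 units, in 6 genes, and 3 held a match with 3 units, in HSPA8, HSP90AA1 and HSPD1. A match is a string of letters and not a measured binding site, and DNA binding was not measured here.

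The 250 bases before the start are shown for the genes with a match, with the matched letters in capitals. HSF1 binds elements of this type, but whether it acts through these matches was not tested. HSPA8 (chr11:123062137-123062386, minus strand) carries 2 matches with 3 units, which begin 230 and 55 bases before the start. HSP90AA1 has 2 annotated starts, and the window of the second (chr14:102087045-102087294, minus strand) has a match with 3 units 88 bases before the start and another with 2 units 68 bases before it. HSPA1A (chr6:31815293-31815542, plus strand) has a match with 2 units 106 bases before its start and a TATAAA in the last 50 bases, which 2.631% of all windows have. DNAJB1, second of 3 windows (chr19:14518398-14518647, minus strand), has matches with 2 units 77 and 47 bases before the start, and the last of them has another just after the start. HSPB1 (chr7:76302423-76302672, plus strand) has a match with 2 units 182 bases before its start.
HSPA8: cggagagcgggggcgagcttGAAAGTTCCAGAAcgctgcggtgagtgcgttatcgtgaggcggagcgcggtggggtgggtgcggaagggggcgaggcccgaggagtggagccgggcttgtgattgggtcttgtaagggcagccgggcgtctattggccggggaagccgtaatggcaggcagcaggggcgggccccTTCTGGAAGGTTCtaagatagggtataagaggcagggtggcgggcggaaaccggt
HSP90AA1: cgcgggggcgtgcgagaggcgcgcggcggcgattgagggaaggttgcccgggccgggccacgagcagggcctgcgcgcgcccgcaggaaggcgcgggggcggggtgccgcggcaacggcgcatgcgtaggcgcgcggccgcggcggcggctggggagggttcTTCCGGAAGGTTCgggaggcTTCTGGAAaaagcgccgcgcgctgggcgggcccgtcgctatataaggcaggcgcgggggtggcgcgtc
HSPA1A: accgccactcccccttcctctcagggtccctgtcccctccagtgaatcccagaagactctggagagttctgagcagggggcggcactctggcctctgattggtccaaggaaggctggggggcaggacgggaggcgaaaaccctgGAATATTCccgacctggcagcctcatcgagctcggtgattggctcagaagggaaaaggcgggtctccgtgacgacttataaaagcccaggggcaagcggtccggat
DNAJB1: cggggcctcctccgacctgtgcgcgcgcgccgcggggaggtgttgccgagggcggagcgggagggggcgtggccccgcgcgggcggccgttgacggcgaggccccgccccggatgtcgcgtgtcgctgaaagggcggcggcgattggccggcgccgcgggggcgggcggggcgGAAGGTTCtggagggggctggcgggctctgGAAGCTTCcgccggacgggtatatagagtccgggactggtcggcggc
HSPB1: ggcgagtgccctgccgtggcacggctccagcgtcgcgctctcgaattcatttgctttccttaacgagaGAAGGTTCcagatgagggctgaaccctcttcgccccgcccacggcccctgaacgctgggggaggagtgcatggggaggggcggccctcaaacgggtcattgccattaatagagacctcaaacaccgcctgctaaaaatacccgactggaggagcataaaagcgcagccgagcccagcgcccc

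HSPD1 and HSPE1 lie head to head on chromosome 2, with 104 bases between the HSPE1 start and the nearer of the annotated HSPD1 starts. The HSPD1 window of the other start (minus strand) holds 4 consecutive units that give 2 overlapping matches with 3 units. This site is shown with a few flanking bases (chr2:197500062-197500090, minus strand), and it lies 294 bases from the HSPE1 start. It falls between the 2 annotated HSPD1 starts, so it is upstream of the other start but downstream of the nearer HSPD1 start.
HSPD1: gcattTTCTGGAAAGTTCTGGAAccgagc
The windows of HSPH1, HSPE1 and BAG3 held neither motif, which says only that these letters are not in those windows.

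Sequencing depth was even, with 38506162 to 41679412 counts per library. Differences between groups were tested on the counts with edgeR's quasi-likelihood test over all 12970 genes, and a gene was called at a Benjamini-Hochberg adjusted p under 0.05. Levels are given in CPM, which is counts relative to the library's total after TMM scaling, when groups are compared. When genes are compared they are given in the deposited FPKM, which is also divided by gene length. The libraries differed in how far their counts depended on transcript GC content. The slope was taken from log2 CPM relative to the mean over the 9 libraries, so its sign is relative to that mean. Per 10 points of GC content it was 0.30 ± 0.07 (SD, n = 3) in LPS_ABS libraries. It was -0.15 ± 0.14 in LPS libraries and -0.15 ± 0.02 in controls. Each comparison is therefore also given after a correction that removes this trend, and the trend and the LPS_ABS group cannot be told apart. LPS_ABS library 3 stood apart from its group on the second principal component (30.3% of the variance). There it lay at 22.7, near the controls at 29.6 to 41.5, while LPS_ABS libraries 1 and 2 lay at -16.7 and -14.0. On the first component it lay at 55.2, with LPS_ABS libraries 1 and 2 at 22.8 and 48.2 and the controls at -25.7 to -16.2. Macrophage markers were present in every library, with summed FPKM of 435 to 608 over 8 genes, led by CD68, SPI1 and LYZ. The sum was 527 to 608 with LPS_ABS, 467 to 499 with LPS and 435 to 478 in controls, and its part in the results was not tested. FCGR3A and CD163 were at or near 0 (at most 0.274 and 0.508 FPKM). Fibroblast and chondrocyte markers summed to at most 0.351 and 0.0734 FPKM, epithelial markers to at most 2.15, and B cell markers to 2.39 to 6.51. The T cell and endothelial lists were carried by CD4 (94.2 to 127 FPKM) and PECAM1 (29.5 to 48.7), which macrophages also express. The other genes measured from those lists were at most 0.0415 and 0.077 FPKM.

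In control cells HSPA8 had the highest level of the 10 genes per length, at 1303 ± 11.4 FPKM (SD, n = 3). HSPB1 followed at 1012 ± 84.7, with every HSPB1 library below every HSPA8 library. HSPD1 (225.4 ± 7.15) and HSP90AA1 (188.5 ± 45.4) overlapped in the third place. HSF1 stood at 73.64 ± 4.27 FPKM and DNAJB1 at 45.33 ± 1.06. HSPE1 (31.23 ± 1.14) and HSPH1 (30.8 ± 1.3) could not be ordered, and BAG3 came next at 20.14 ± 0.507. HSPA1A was last with 4.765 ± 0.634 FPKM, and HSPA8 exceeded it by 277 ± 38 times in FPKM in the controls. HSPA1B, the near-identical neighbour of HSPA1A, had 13.09 ± 0.374 FPKM. The ratio is for HSPA1A alone, and 69.9% of the 100-base stretches of its transcript are shared with HSPA1B. Its counts can therefore be split or dropped, which would raise the ratio. The strictly inducible HSPA6, named after its values were seen, had 7 to 52 counts per library over all 9 libraries.

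With LPS the order changed at its top. HSPB1 (1094 ± 26.7 FPKM) now exceeded HSPA8 (610.8 ± 32.1) in every library, and it did so with LPS_ABS too (1028 ± 80.4 against 558.2 ± 213). The 10 genes together took 0.564% ± 0.0265 of all counts in the controls, 0.338% ± 0.0103 with LPS and 0.312% ± 0.0529 with LPS_ABS. The control range (0.535% to 0.587%) lay above both others. HSPA8 supplied 52.8% ± 2.25 of the summed counts of the 10 genes in controls, 41.2% ± 1.01 with LPS and 40% ± 9 with LPS_ABS. In the same libraries the HSPB1 part was 13.9% ± 0.569, 25.1% ± 1.1 and 26.2% ± 5.42.

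**Figure D1:**
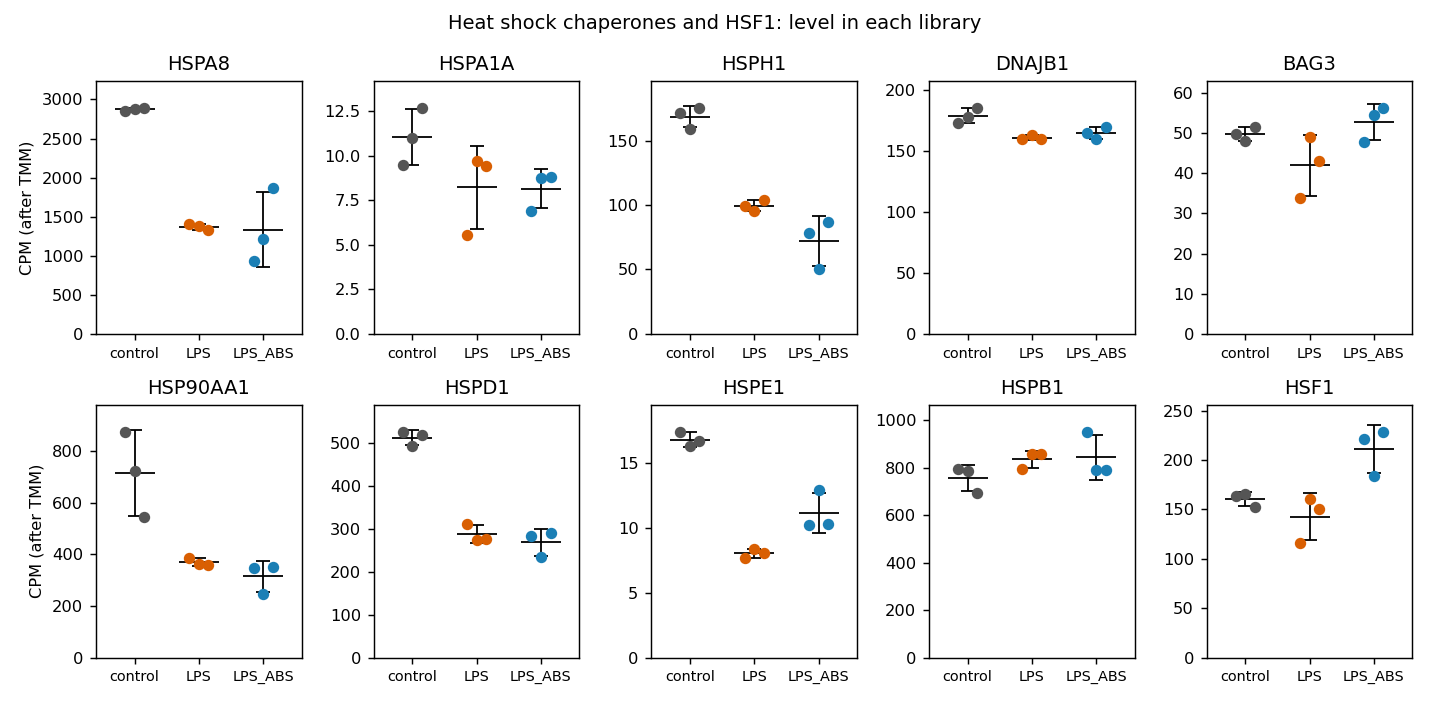
Level of each of the 10 genes in the 9 libraries, in CPM after TMM scaling on a linear axis from 0, with a separate scale per gene. Points are libraries (control grey, LPS orange, LPS_ABS blue) and bars are mean ± SD of 3 libraries. HSPA8, HSPH1, HSP90AA1, HSPD1 and HSPE1 have all 3 controls above all treated libraries.

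With LPS, the most abundant constitutive chaperone and 4 others were lower, and HSF1 showed no detectable change. HSPA8, HSPE1, HSP90AA1, HSPD1 and HSPH1 fell by 0.76 to 1.07 on the log2 scale, which is 1.69-fold to 2.09-fold. No member of the set rose. So 5 of 10 genes were called lower and 0 higher, and the counts were the same at an unadjusted p under 0.05 and in DESeq2 and limma-voom. Among all genes tested, 7.19% were called lower and 7.71% higher, 14.9% in either direction. The median log2 fold change of the 10 genes was -0.59, against -0.03 over all genes tested. The same 5 genes were called after GC correction, where 21.1% of all genes were called and 9.72% were called lower. The 3 genes with a match of 3 units in a promoter window were among the 5. So were HSPH1 and HSPE1, whose windows held no match. HSPA1A, DNAJB1 and HSPB1, with 2 units, and BAG3, with no match, were not called. Only exact letters within the windows were counted, and the HSPD1 site, 294 bases from the HSPE1 start, lies outside the HSPE1 window. A link between matches and changes was not tested. In 6 of the 10 genes the LPS libraries lay wholly below the controls, and in 1, HSPB1, wholly above them. Of all genes, 22.7% lay wholly below and 19.9% wholly above.

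In the Hsp70 cycle, HSPA8, the constitutive Hsp70, was tightly grouped. It measured 2852, 2875 and 2889 CPM in control libraries 1 to 3, and 1405, 1377 and 1331 CPM in LPS libraries 1 to 3. The groups were far apart, and HSPA8 fell by 1.07 ± 0.19 (log2, SE), 2.09-fold, with an adjusted p of 0.0034 (8.6e-04 after GC correction). HSPH1, which reloads Hsp70 with ATP and is itself a chaperone, went from 171.7, 159.2 and 175.2 CPM to 98.92, 95.46 and 104.3 CPM. All its LPS libraries were below all controls, and it fell by 0.76 ± 0.17 (log2), adjusted p = 0.012. That call was lost when control library 3 was left out (adjusted p = 0.0503). Over the 9 leave-outs of a single library the log2 fold change stayed between -0.80 and -0.69.

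HSPA1A, the Hsp70 that stress induces, read 9.492, 10.97 and 12.67 CPM in controls and 5.54, 9.704 and 9.444 CPM with LPS. The groups overlapped, and its log2 fold change of -0.43 ± 0.22 did not pass (adjusted p = 0.228). DNAJB1, the J-domain partner of Hsp70 and a classical heat shock gene, read 172.9, 178.1 and 185 CPM in controls and 159.6, 163.1 and 160.1 CPM with LPS. Its groups did not overlap, yet the difference of -0.15 ± 0.10 on the log2 scale was not called (adjusted p = 0.362). BAG3, which links Hsp70 to autophagy, read 49.9, 47.97 and 51.47 CPM against 33.95, 48.97 and 43.18 CPM. Its groups overlapped, with LPS library 1 lowest (log2 fold change -0.24 ± 0.15, adjusted p = 0.298).

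HSP90AA1, the stress-inducible cytosolic Hsp90, varied most between controls, at 874.8, 724.6 and 544.4 CPM. The LPS libraries, at 386.7, 364.1 and 358.4 CPM, were all lower. It fell by 0.95 ± 0.17 (log2), 1.93-fold, adjusted p = 0.00396. Leaving out any of the 9 libraries kept the call, with log2 fold changes of -1.11 to -0.78.

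The matrix chaperonin genes fell as well. HSPD1, the chamber, went from 526.9, 493.9 and 519.4 CPM to 312.8, 274.8 and 277.6 CPM (log2 fold change -0.83 ± 0.12, adjusted p = 7.9e-04). HSPE1, the lid, went from 17.38, 16.31 and 16.66 CPM to 7.678, 8.389 and 8.029 CPM (-1.06 ± 0.15, adjusted p = 9.2e-04). In both genes the groups were clearly separated. The ratio of HSPD1 to HSPE1 in FPKM was 7.15 to 7.36 in controls and 7.73 to 9.62 with LPS. HSPE1 rests on 312 to 725 counts per library. Of the 100-base stretches of its transcript, 17.0% also occur in transcripts of other genes, 11% in the HSPE1-MOB4 readthrough, so its counts can be split or dropped in counting.

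HSPB1, the ATP-independent holdase, read 793.6, 785.5 and 695.5 CPM in controls and 794.5, 857.4 and 857.9 CPM with LPS. The groups touched without overlapping, and the log2 fold change of 0.14 ± 0.11 was not called (adjusted p = 0.435). HSF1 read 164, 165.5 and 152.1 CPM in controls and 115.9, 161.1 and 150.9 CPM with LPS. The ranges overlapped and no difference was called (-0.17 ± 0.14, adjusted p = 0.463). This is the level of HSF1 mRNA, while the activity of the protein is known to be set by trimer formation, modification and localization, which were not measured.

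The 5 genes that fell have transcripts of 40% to 50.2% GC and the 5 that were not called have 53% to 64.5% GC. The GC trend between LPS and control at these 10 genes was small, from -0.05 to -0.01 on the log2 scale. The GC-corrected changes of the 5 genes were between -1.03 and -0.73.

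**Figure D2:**
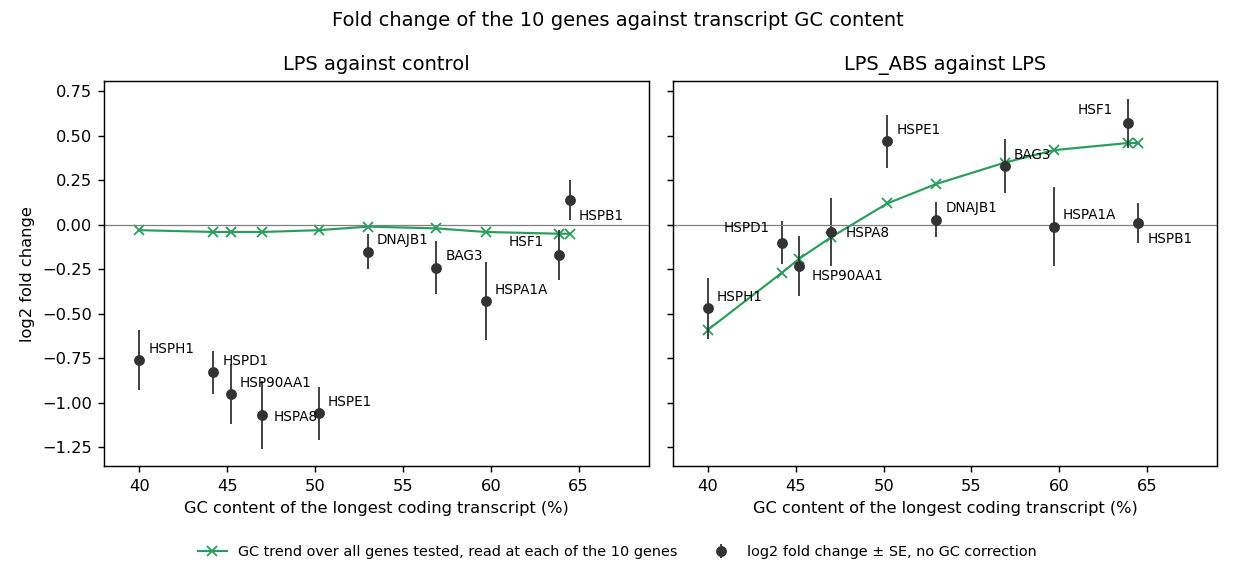
Log2 fold change (± SE, black points) of the 10 genes against the GC content of their longest coding transcript, for LPS against control (left) and LPS_ABS against LPS (right), with the fitted trend of all tested genes (green). On the left the trend lies between -0.05 and -0.01, and on the right it runs from -0.59 at HSPH1 to 0.46 at HSF1 and HSPB1.

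With ABS added to LPS, 3 of the 10 genes differed from LPS alone. HSF1 and HSPE1 were higher with LPS_ABS than with LPS (2 of 10) and HSPH1 was lower (1 of 10), against 16.8% higher and 18.8% lower among all genes tested (35.6% called). The median over the 10 genes was 0 (0.02 over all genes). None of the 3 calls was kept after GC correction, where HSPB1 was the 1 gene called, as lower, and 0 were higher (1 at an unadjusted p under 0.05), against 4.98% higher and 4.21% lower among all genes (9.19% called). In 2 genes, HSF1 and HSPE1, the LPS_ABS libraries lay wholly above the LPS libraries, and in 2, HSPH1 and HSP90AA1, wholly below (21.9% and 24.3% of all genes). Because this comparison and that of LPS with control share the LPS libraries, the values are given side by side and not correlated.

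HSF1 read 221.2, 183.6 and 228.6 CPM with LPS_ABS, above every LPS library (115.9 to 161.1 CPM) and every control (152.1 to 165.5 CPM). It was higher than with LPS by 0.57 ± 0.14 (log2), 1.48-fold, adjusted p = 0.0116. Its transcript has 63.9% GC, above 93.6% of tested genes, and the trend over all genes at that GC content was 0.46. After GC correction its log2 fold change was 0.12 ± 0.10 (adjusted p = 0.463). The corrected log2 CPM was 7.41, 7.29 and 7.56 with LPS_ABS and 7.27, 7.29 and 7.35 with LPS, so the groups then overlapped. Without GC correction the call held in all 9 leave-outs, with adjusted p-values up to 0.0398.

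HSPE1 read 10.19, 12.90 and 10.31 CPM, between the LPS and the control ranges. It was higher than with LPS by 0.47 ± 0.15 (log2), adjusted p = 0.0321, and by 0.35 ± 0.14 after GC correction (adjusted p = 0.126). The call was also lost with total counts in place of TMM, with no low-count filter and with only the 2 groups compared. Without correction it held when LPS_ABS library 1 or 3 was left out and was lost in the other 7 leave-outs, with adjusted p-values up to 0.102. HSPD1, its partner, read 284, 233.7 and 291.4 CPM, which overlapped the LPS range (-0.10 ± 0.12, adjusted p = 0.539). Before GC correction the ratio of HSPD1 to HSPE1 in FPKM was 4.27 to 6.67 here, below all libraries of the other groups. After GC correction the groups overlapped: the log2 CPM of HSPD1 minus that of HSPE1 was 4.98, 4.49 and 5.10 in LPS_ABS libraries, 5.13, 4.94 and 5.01 in LPS libraries and 4.75, 4.77 and 4.86 in controls.

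HSPH1 read 78.32, 50.01 and 87.22 CPM, below the LPS range, with LPS_ABS library 2 lowest. It was lower by 0.47 ± 0.17 (log2), adjusted p = 0.0495. Its transcript is the poorest in GC of the 10 (40%), and the trend there was -0.59. After GC correction the difference was 0.12 ± 0.17 (adjusted p = 0.668). As with HSPE1, the call held only when LPS_ABS library 1 or 3 was left out, and the other 7 leave-outs had adjusted p-values up to 0.128.

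HSPA8 was the most uneven gene in this group, at 928, 1213 and 1867 CPM in LPS_ABS libraries 1 to 3. Library 3 exceeded all LPS libraries and libraries 1 and 2 lay below them all, and no difference was called (-0.04 ± 0.19, adjusted p = 0.892). Without library 3, HSPA8 was called lower (-0.36, adjusted p = 0.0354), but not after GC correction (-0.24, adjusted p = 0.192). Without library 3 the calls of HSPE1 (0.52, adjusted p = 0.0301), HSF1 (0.50, adjusted p = 0.0284) and HSPH1 (-0.63, adjusted p = 0.0205) stayed, before GC correction.

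HSP90AA1 read 347.2, 247 and 349.8 CPM, wholly below the LPS libraries before GC correction, yet was not called (-0.23 ± 0.17, adjusted p = 0.309). After correction its log2 CPM of 8.61, 8.13 and 8.49 overlapped the 8.44 to 8.49 of the LPS libraries (-0.04 ± 0.17, adjusted p = 0.889). HSPB1 read 951.9, 791.2 and 788.9 CPM and was level with LPS before correction (0.01 ± 0.11, adjusted p = 0.94). Its GC content, 64.5%, is the highest of the set, and after GC correction it was called lower (-0.46 ± 0.11, adjusted p = 0.0289). That call was lost in 6 of the 9 leave-outs, those of control libraries 1 and 2, LPS libraries 1 and 3 and LPS_ABS libraries 2 and 3 (adjusted p-values up to 0.0966). DNAJB1 read 164.9, 159.5 and 169.5 CPM and overlapped LPS (0.03 ± 0.10, adjusted p = 0.824). BAG3 read 47.84, 54.43 and 56.23 CPM, with 1 library inside the LPS range (0.33 ± 0.15, adjusted p = 0.0949, and -0.01 ± 0.12 after GC correction). HSPA1A, at 6.904, 8.753 and 8.799 CPM, lay within the LPS range (-0.01 ± 0.22, adjusted p = 0.97).

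**Figure D3:**
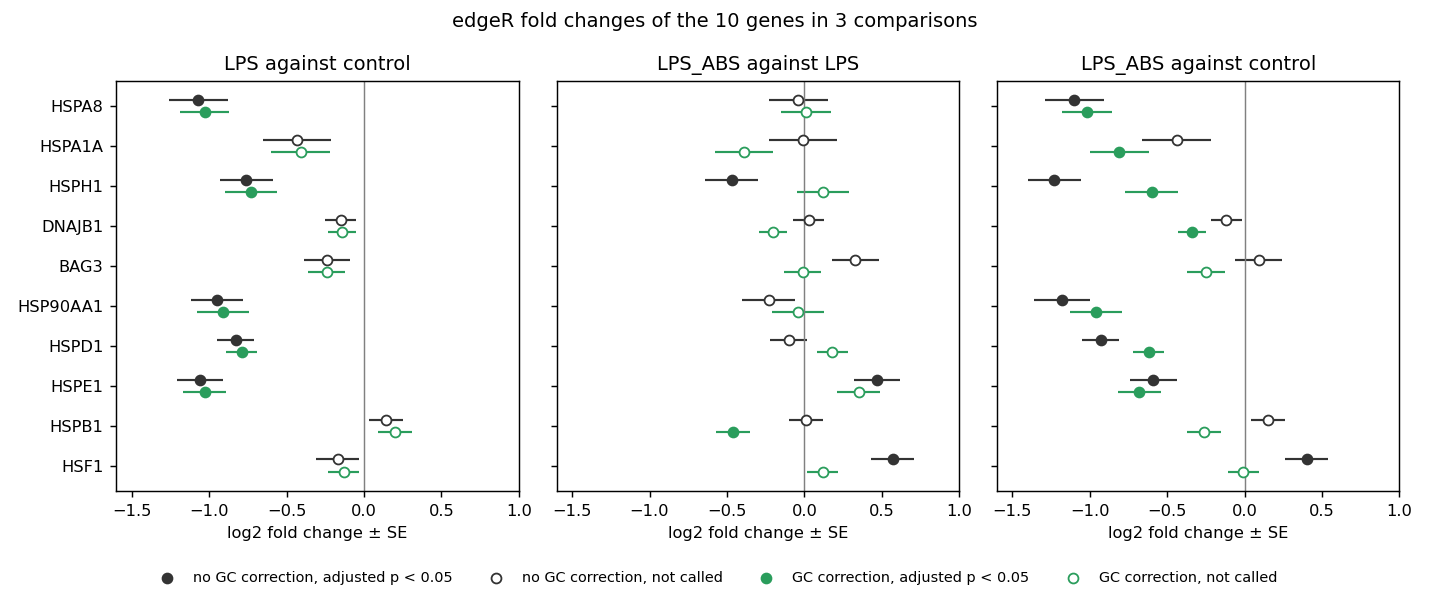
Log2 fold change (± SE) of the 10 genes in the 3 comparisons, without (black) and with (green) GC correction. Filled points passed an adjusted p of 0.05 in edgeR. In the left panel the paired points nearly coincide, and in the middle panel HSPH1 moves from -0.47 to 0.12 and HSF1 from 0.57 to 0.12.

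Set against the controls, cells given LPS with ABS had the same 5 chaperones low. HSPH1 (-1.23 ± 0.17, adjusted p = 8.2e-04), HSP90AA1 (-1.18 ± 0.18, adjusted p = 0.00103), HSPA8 (-1.10 ± 0.19, adjusted p = 0.0019), HSPD1 (-0.93 ± 0.12, adjusted p = 5.0e-04) and HSPE1 (-0.59 ± 0.15, adjusted p = 0.0119) fell. HSF1 rose (0.40 ± 0.14, adjusted p = 0.0469), a call that ended after GC correction, with total counts, with limma on log2(FPKM + 1) and with the replicate block. That made 5 of 10 lower and 1 of 10 higher, against 19% lower and 14.8% higher among all genes tested (33.8% called). In 7 of the 10 genes the LPS_ABS libraries lay wholly below the controls, and in 1 wholly above (25.1% and 24.9% of all genes). All 5 falls were called after GC correction too, at log2 fold changes of -1.02 to -0.60, where 5.05% of all genes were lower and 7.95% higher (13% called). HSPA1A (-0.81 ± 0.19, adjusted p = 0.0143) and DNAJB1 (-0.34 ± 0.09, adjusted p = 0.0342) then joined them, which gave 7 lower and 0 higher (8 and 0 at an unadjusted p under 0.05). Of these corrected calls, that of HSPH1 held only when LPS_ABS library 3 was left out (-0.87, adjusted p = 3.9e-04) and was lost in the other 8 leave-outs. That of DNAJB1 was lost in 5 leave-outs, those of all 3 control libraries, LPS library 3 and LPS_ABS library 2, and that of HSPA1A without control library 3 (adjusted p = 0.0609). HSF1 after GC correction was at -0.01 ± 0.10 (adjusted p = 0.948). Without GC correction its call held when LPS library 1 or 2 or LPS_ABS library 2 was left out. It was lost in the other 6 leave-outs, among them that of LPS_ABS library 3 (0.33, adjusted p = 0.0958). The call of HSPE1 was lost without control library 1, both without GC correction (adjusted p = 0.0543) and with it (0.0531). Without LPS_ABS library 3 the fall of HSPA8 was -1.42 (adjusted p = 1.2e-05).

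HSPA1A and HSPA1B share 69.9% of the 100-base stretches of the HSPA1A transcript, so how reads were split between them is uncertain. HSPA1B read 31.38, 30.76 and 33.26 CPM in controls, 16.83, 34.49 and 33.17 CPM with LPS, and 20.48, 27.82 and 28.31 CPM with LPS_ABS. HSPA1A took 25.7% ± 2.26 of the counts of the pair in controls, 23.0% ± 1.56 with LPS and 24.3% ± 0.814 with LPS_ABS. With their counts summed, which was added after the data were seen, the pair had a log2 fold change of -0.24 ± 0.22 for LPS against control (adjusted p = 0.527). It was -0.11 ± 0.22 for LPS_ABS against LPS (adjusted p = 0.723) and -0.35 ± 0.22 for LPS_ABS against control (adjusted p = 0.236). After GC correction the last of these was -0.72 ± 0.18 (adjusted p = 0.0211). In both genes library 1 of the LPS and of the LPS_ABS group was the lowest of its group. Besides HSPE1, the other genes with shared stretches were HSPB1 (5.1%), HSPD1 (3.9%) and HSP90AA1 (2.1%), and the remaining 5 had none.

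The relatives and partners of these genes were described from 10 lists, by how many genes passed the test. Among all genes tested, 7.19% were lower and 7.71% higher with LPS against control (9.72% and 11.4% after GC correction). With LPS_ABS against LPS the shares were 18.8% lower and 16.8% higher (4.21% and 4.98%). The counts of these short lists are a description, and some of them moved when LPS_ABS library 3 was left out. With LPS, 4 of 15 Hsp90 and cochaperone genes were called lower and 0 higher, beside 7.19% lower over all genes. The counts were 7 and 0 at an unadjusted p under 0.05, 5 and 0 in DESeq2, and 4 and 0 in limma-voom. The median log2 fold change of the list was -0.30, against -0.03 over all genes. FKBP4, an immunophilin that carries steroid receptors, fell by 1.28 ± 0.17 (log2, adjusted p = 6.4e-04). HSP90AB1, the constitutive cytosolic Hsp90, fell by 0.98 ± 0.16 (adjusted p = 0.00206), and AHSA1, which activates the Hsp90 ATPase, fell by 0.70 ± 0.14 (adjusted p = 0.00744). These calls were kept after GC correction.

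Unlike HSP90AA1, HSP90AB1 stood higher with LPS_ABS than with LPS. It read 2284, 2377 and 2688 CPM in controls, 1324, 1193 and 1201 CPM with LPS, and 1579, 2054 and 2714 CPM with LPS_ABS. The LPS_ABS libraries were all above LPS. Libraries 1 and 2 lay below every control and library 3 lay above them all. Against LPS, HSP90AB1 rose by 0.77 ± 0.16 (log2, adjusted p = 0.00652), and by 0.75 after GC correction (adjusted p = 0.00891). Without library 3 the rise was 0.55 (adjusted p = 0.0133). Against the controls HSP90AB1 was not called (-0.21 ± 0.16, adjusted p = 0.316). Without library 3 it was called lower than the controls (-0.43, adjusted p = 0.0202, and -0.35 after GC correction, adjusted p = 0.0415). FKBP4 read 94.73, 101.8 and 111.4 CPM in controls, 46.16, 38.98 and 41.82 CPM with LPS, and 97.05, 69.83 and 116.9 CPM with LPS_ABS. Again the LPS libraries were separate and low, and FKBP4 rose by 1.16 ± 0.17 (log2, adjusted p = 0.00314), by 1 after GC correction (adjusted p = 0.00512), and by 0.98 without library 3 (adjusted p = 0.00677). The ratio of HSP90AA1 to HSP90AB1 in FPKM ranged from 0.147 to 0.278 over the controls, from 0.212 to 0.221 over the LPS libraries and from 0.0873 to 0.16 over the LPS_ABS libraries, where 1 library lay above the lowest control. Whether the change of HSP90AB1 differs from that of HSP90AA1 was not tested. Over the Hsp90 list, 5 of 15 genes were higher and 3 lower with LPS_ABS than with LPS, beside 16.8% and 18.8% of all genes. SUGT1, a cochaperone of immune receptors, was among the lower ones (-0.71 ± 0.16, adjusted p = 0.00875, and 0 after GC correction, adjusted p = 0.985). After GC correction 3 genes were higher and 0 lower, and 2 of the calls without correction were kept.

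**Figure D4:**
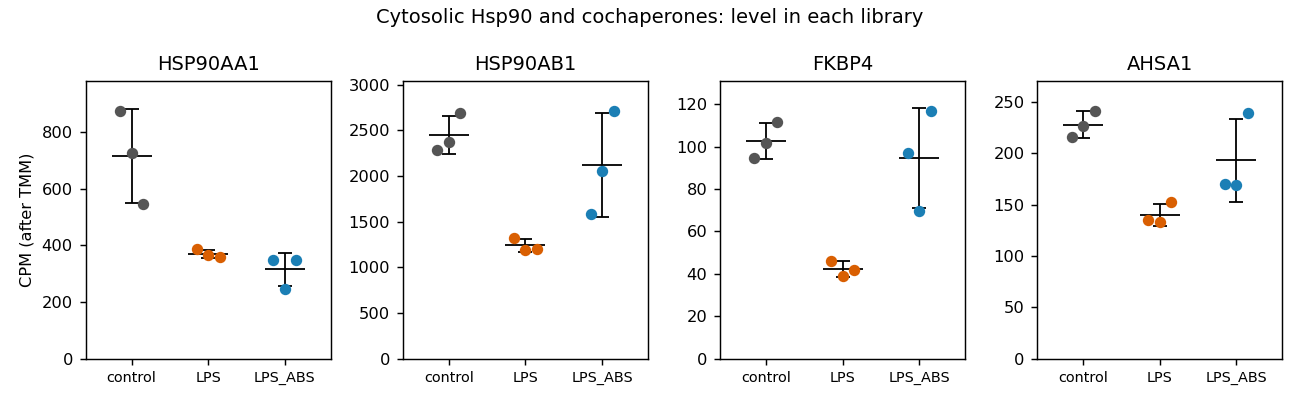
Level of both cytosolic Hsp90 genes and of the cochaperones FKBP4 and AHSA1 in the 9 libraries, in CPM after TMM scaling on a linear axis from 0. Points are libraries and bars are mean ± SD of 3 libraries. HSP90AA1 is at 247 to 349.8 with LPS_ABS, below the LPS range, while HSP90AB1 is at 1579 to 2714, above it. In edgeR the HSP90AA1 difference from LPS was not called (-0.23 ± 0.17, adjusted p = 0.309), and after GC correction its groups overlapped.

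Among the Hsp70 and Hsp110 relatives, 3 of 8 fell and 1 rose with LPS (7.19% and 7.71% of all genes). HSPA4L (-1.17 ± 0.22, adjusted p = 0.00411) and HSPA4 (-0.56 ± 0.13, adjusted p = 0.0158), both of the Hsp110 branch like HSPH1, fell, and HSPA13, a microsomal Hsp70, rose (1.51 ± 0.35, adjusted p = 0.0139). With LPS_ABS against LPS 2 of 8 were lower (18.8% of all genes), and 0 after GC correction (2 at an unadjusted p under 0.05). Of the J-domain genes, 1 of 12 was lower with LPS (DNAJB5, -0.97 ± 0.24, adjusted p = 0.0177), beside 7.19% of all genes. The count was 3 after GC correction, in DESeq2, at an unadjusted p under 0.05 and without LPS_ABS library 3, and 1 in limma-voom. With LPS_ABS 5 of 12 were lower than with LPS (3 without LPS_ABS library 3, and 18.8% of all genes), led by DNAJA1 (-0.82 ± 0.15, adjusted p = 0.00472), and 0 after GC correction (2 at an unadjusted p under 0.05), where DNAJA1 was at -0.35 (adjusted p = 0.0995). Of the 9 genes for Hsp70 nucleotide exchange and regulation, 1 fell with LPS (BAG2, -0.77 ± 0.20, adjusted p = 0.0253), beside 7.19% of all genes. The count was 2 without LPS_ABS library 3 and in DESeq2, 3 at an unadjusted p under 0.05, and 1 in limma-voom. With LPS_ABS 4 of these 9 were higher than with LPS and 1 lower (16.8% and 18.8% of all genes), and 0 in either direction after GC correction (1 higher at an unadjusted p under 0.05). Of the 3 genes with an HSPB symbol tested besides HSPB1, HSPB11 fell with LPS (-0.54 ± 0.14, adjusted p = 0.021) and none rose, beside 7.19% and 7.71% of all genes. After GC correction HSPB7 was also called, as higher (0.7, adjusted p = 0.0493). Without LPS_ABS library 3, 2 were called higher, among them HSPB6. It had only 5 to 6 counts per control library and 16 to 23 per LPS library. HSPB7 was lower with LPS_ABS than with LPS (-0.77 ± 0.25, adjusted p = 0.0293, and -1.19 after GC correction, adjusted p = 0.013).

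The TRiC chaperonin, which folds actin and tubulin in the cytosol, and its partner prefoldin had 4 of 14 genes lower and 0 higher with LPS, and the same counts after GC correction (7 and 0 at an unadjusted p under 0.05, 5 and 0 in DESeq2). Of all genes 7.19% were lower, and 9.72% after GC correction, and without LPS_ABS library 3 the corrected count was 7 lower. CCT7 (-0.60 ± 0.10, adjusted p = 0.00314), CCT6A (-0.75 ± 0.15, adjusted p = 0.00534) and TCP1 (-0.55 ± 0.14, adjusted p = 0.0211) were the clearest. With LPS_ABS its subunits split: CCT7 was higher than with LPS (0.60 ± 0.10, adjusted p = 0.00443) and CCT8 lower (-1.16 ± 0.17, adjusted p = 0.00313). Both calls were kept after GC correction (0.44 and -0.80) and without LPS_ABS library 3 (0.59 and -1.02).

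Around HSPD1 and HSPE1 in the mitochondrion, 4 of 13 other chaperones and proteases fell and 2 rose with LPS (7.19% and 7.71% of all genes). TRAP1, the mitochondrial Hsp90, fell (-0.73 ± 0.11, adjusted p = 0.0016), while the protease LONP1 (0.87 ± 0.22, adjusted p = 0.0194) and the matrix Hsp70 HSPA9 (0.42 ± 0.11, adjusted p = 0.021) rose. All 6 calls were kept after GC correction. With LPS_ABS against LPS, 4 of 13 were higher and 3 lower, beside 16.8% and 18.8% of all genes. TRAP1 (0.92 ± 0.12, adjusted p = 0.00241, and 0.60 after GC correction) and the disaggregase CLPB (1.01 ± 0.14, adjusted p = 0.00309, and 1.05 after GC correction) were the 2 calls kept.

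Of 10 genes of the HSF family and its regulators, 0 were called with LPS against control in edgeR, also after GC correction (1 higher and 0 lower at an unadjusted p under 0.05, 0 and 0 in DESeq2 and limma-voom). HSF2, the second stress factor of the family, was lower with LPS_ABS than with LPS (-0.70 ± 0.18, adjusted p = 0.0141), but not after GC correction (-0.12, adjusted p = 0.642). That list had 5 calls there, 2 higher and 3 lower (0 and 2 without LPS_ABS library 3), beside 16.8% and 18.8% of all genes. None of the 5 was kept after GC correction. Textbook HSF1 targets other than the 10 genes, which share members with the lists above, had 7 of 25 lower and 1 higher with LPS (7.19% and 7.71% of all genes), and all 8 calls were kept after GC correction. Without LPS_ABS library 3 the corrected count was 11 lower and 1 higher. Their median log2 fold change was -0.27. With LPS_ABS against LPS they had 4 higher and 3 lower (3 and 5 without LPS_ABS library 3), beside 16.8% and 18.8% of all genes. The corrected counts of that comparison were 3 higher and 1 lower, beside 4.98% and 4.21%. Against the controls they had 1 higher and 9 lower, beside 14.8% and 19% of all genes. After GC correction they had 1 higher and 5 lower, beside 7.95% and 5.05%, and 1 higher and 10 lower without LPS_ABS library 3.

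The chaperones of the endoplasmic reticulum, which answer to the unfolded protein response rather than to HSF1, were set beside these lists. With LPS 7 of 15 were lower and 0 higher (9 and 0 at an unadjusted p under 0.05, 7 and 0 in DESeq2), and all 7 were kept after GC correction, beside 7.19% lower and 7.71% higher of all genes. Their median log2 fold change was -0.43. CALR, a lectin chaperone (-0.90 ± 0.12, adjusted p = 5.2e-04), SDF2L1 (-0.99 ± 0.15, adjusted p = 0.0014) and the secreted factor MANF (-1 ± 0.16, adjusted p = 0.00191) led. With LPS_ABS 8 of 15 were higher than with LPS and 2 lower, beside 16.8% and 18.8% of all genes. After GC correction 4 were higher and 0 lower, beside 4.98% and 4.21%, and 2 were higher without LPS_ABS library 3. CALR rose by 0.85 ± 0.12 (adjusted p = 0.00309), by 0.59 after GC correction (adjusted p = 0.0128) and by 0.73 without library 3 (adjusted p = 0.0043).

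**Figure D5:**
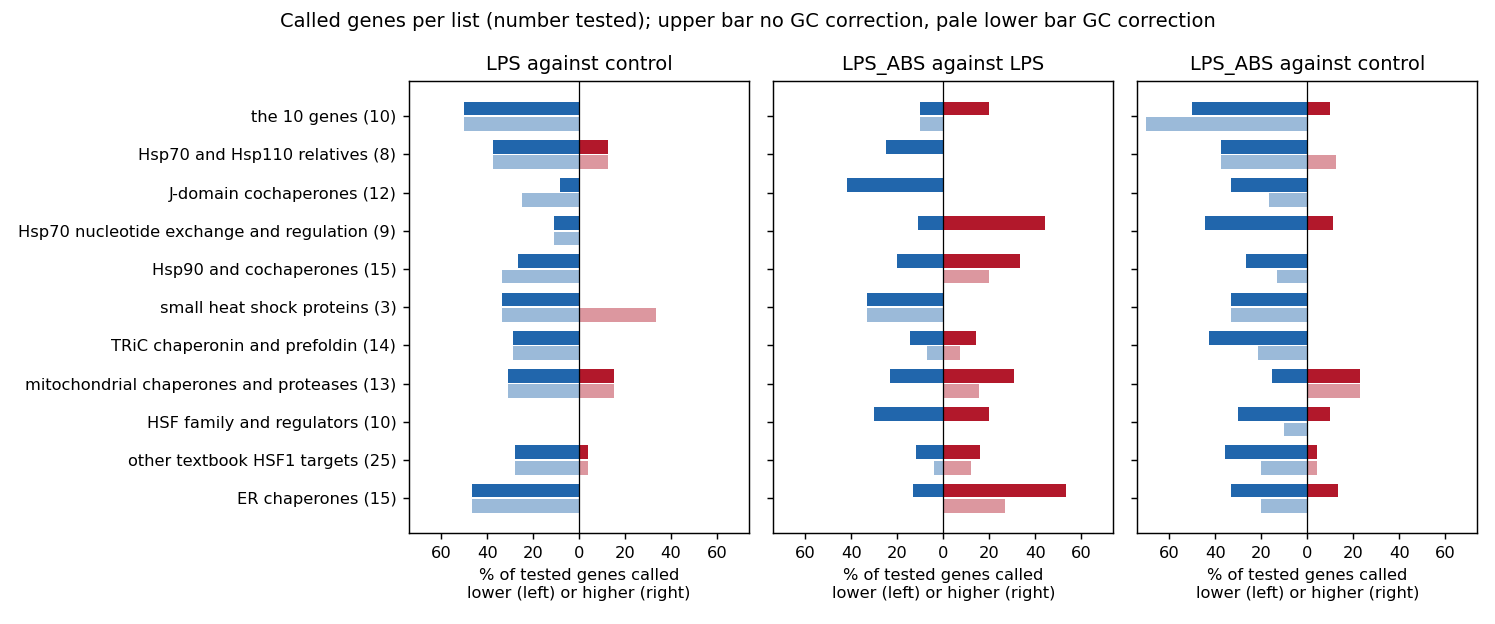
Percent of the tested genes of each list that were called lower (blue, left) or higher (red, right) in the 3 comparisons, without GC correction (dark) and with it (pale). With LPS 50% of the 10 genes and 7 of 15 chaperones of the endoplasmic reticulum are lower. In the middle panel the dark bars of the J-domain list have no pale counterpart.

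Over the 9 libraries the gene most like HSPH1 in log2 CPM was ONECUT2 (Pearson r = 0.991), followed by POLA1 (0.988) and WDR3 (0.987). Those most like HSF1 were RHBDF1 (0.991), ARHGDIA (0.988) and CLPTM1 (0.986). Those most like HSPA1A were GRK4 (0.926), HSPA1B (0.916) and TCTN2 (0.894). These 9 points share the 3 treatments and the GC trend, and the values are a description with no test. Among the 10 genes, HSPH1 ran with HSPD1 (0.93) and HSP90AA1 (0.92) and HSPA8 with HSPD1 (0.91), while HSF1 ran closest to BAG3 (0.77) and had values of -0.36 with HSPH1 and -0.19 with HSPA8.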

How the data were processed

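RNA sequencing libraries of PMA-treated THP-1 cells were assigned to groups from their treatment label, and table columns were matched to samples by title. Per the labels' protocols, RNA was isolated with TRIzol, and each sample names 2 kits, VAHTS Universal V5 and a stranded TruSeq kit for mRNA. The submitters' processing notes name HISAT2, HTSeq, DESeq2, fastp and R 3.2.0 without saying what each did. Build, annotation and the counter's strand setting are not given in the sources used here. Therefore overlapping and antisense genes may share counts. The authors deposited, for each gene, raw read counts and FPKM values. A deposited FPKM value is the count over the library total and a length fixed for that gene, with a relative spread of the implied length of at most 9.9e-16.

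The test was edgeR's quasi-likelihood F test (edgeR 4.0.16, R 4.3.3). The filter filterByExpr left 12970 genes that hold 99.985% of the counts, scaling was by TMM, and the fit had 3 group means over 9 libraries and 6 residual degrees of freedom. The common coefficient of variation was 18.4%. Adjusted p-values are Benjamini-Hochberg over all genes tested, and the SE of a log2 fold change is its size divided by the square root of F. For the GC correction, the log2 CPM of each library relative to the mean over libraries was smoothed by lowess with a span of 0.3 against GC content, taken from the longest coding transcript in GENCODE v29, and the smoothed value was used as an offset. GC content was found for 16115 of 16222 genes (99.34%). Alternatives were DESeq2 1.42.0, limma-voom and limma 3.58.1 on log2(FPKM + 1) of the deposited values, other scalings and filters, 2 groups only, a replicate block, and leaving out each library. Summing HSPA1A and HSPA1B, and the fits of list genes without LPS_ABS library 3, were chosen after the data were seen. The fit was also run on simulated data in which all genes had the same variation. That run does not show how the fit performs on these data.

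The 10 genes and the lists were chosen with earlier results of these data known. All 10 genes were named in each comparison, and up to 3 called genes of each list with the smallest adjusted p were eligible to be named. The most alike genes were the 3 with the highest Pearson correlation of log2 CPM (prior count 2). Libraries of 1 group were no duplicates (lowest chi-square per degree of freedom 7.22). Whether they are separate cultures is not stated in the labels, so the p-values reflect only how far these samples spread, which may be technical. Of the marker lists, CD3D, CD3E, TRAC, MS4A1, CDH5, COL3A1, ACAN and COMP were not analysed here.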

Additional observations from a re-analysis of the deposited data

How the results depend on the processing

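All values here are log2 fold changes or counts of the 10 genes called at an adjusted p under 0.05, from edgeR unless another tool is named. LPS against control held under all alternatives run: 5 genes lower and 0 higher, except for 4 lower without control library 3, and the leave-outs gave 4 to 5. For LPS_ABS against LPS, the 2 genes called higher became 1 (HSF1, without HSPE1) with total counts in place of TMM, 1 with no low-count filter, 1 with only the 2 groups compared, and 0 after GC correction with or without the replicate block. The count called lower became 0 with only the 2 groups compared. It was 1 after GC correction with or without the block, but there the gene was HSPB1 and HSPH1 was not called. Leaving out a library, with or without GC correction, gave 0 to 2 higher and 0 to 2 lower. For LPS_ABS against control, the 1 gene called higher (HSF1) became 0 with limma on log2(FPKM + 1), with total counts, with the replicate block, and after GC correction with or without the block, and leave-outs gave 0 to 1. The genes called lower numbered 4 to 7 over all alternatives run.

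The sign of the fold change turned in these fits. For LPS_ABS against LPS, HSPA1A was at 0.03 in limma-voom and 0.01 with the replicate block. With limma on log2(FPKM + 1), DNAJB1 was at -0.07 and HSPB1 at -0.09, as they were with total counts (-0.07 and -0.09). HSPB1 was at -0.02 with no filter and -0.02 with only the 2 groups. After GC correction HSPA8 was at 0.01, HSPH1 at 0.12, DNAJB1 at -0.20, HSPD1 at 0.18, HSPB1 at -0.46 and BAG3 at -0.01. With the block added, HSPH1 was at 0.09, DNAJB1 at -0.20, HSPD1 at 0.17, HSPB1 at -0.45 and BAG3 at -0.01. For LPS_ABS against control, BAG3 was at -0.04 with limma on log2(FPKM + 1) and -0.04 with total counts. After GC correction HSPB1 was at -0.26, BAG3 at -0.25 and HSF1 at -0.01, and with the block added they were at -0.26, -0.25 and -0.02. Over the leave-outs with and without GC correction, the values for LPS_ABS against LPS ranged from -0.53 to 0.10 (HSPA1A), -0.36 to 0.18 (HSPA8), -0.63 to 0.30 (HSPH1), -0.22 to 0.06 (DNAJB1), -0.32 to 0.08 (HSP90AA1), -0.16 to 0.24 (HSPD1), -0.53 to 0.06 (HSPB1) and -0.06 to 0.43 (BAG3). For LPS_ABS against control they ranged from -0.31 to 0.20 (HSPB1), -0.30 to 0.15 (BAG3) and -0.08 to 0.49 (HSF1). The cause was not tested beyond the GC trend itself.

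The deviations of samples with the same replicate number had correlations of -0.04 to 0.20, and those with different numbers -0.20 to 0.17. For LPS_ABS against control, replicates 1 and 3 had 0.17 and 0.20 with their own number. Not every library correlated best with its own number, and no label states a pairing, so the numbers were not taken to pair the samples. The replicate block moved the genes called from 1933 to 1960, from 4621 to 4838 and from 4388 to 4573, and ended the HSF1 call in LPS_ABS against control (0.39, adjusted p = 0.0608). Over all genes, GC correction moved the calls from 4621 to 1192 and from 4388 to 1686, and with only the 2 groups compared they moved from 1933 to 3245 and from 4621 to 3042. Leaving out a library gave 873 to 2710, 2360 to 4918 and 2351 to 4793 calls without GC correction. After GC correction it gave 1496 to 3619 (2742 with all libraries), 183 to 2751 (1192) and 589 to 2613 (1686). With total counts, the higher calls of LPS_ABS against LPS were 1489 of 4569 (2179 of 4621 with TMM), those of LPS_ABS against control 1192 of 4463 (1920 of 4388), and the median log2 fold changes over all genes moved from 0.02 and 0.05 to -0.09 and -0.08.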
